A study of Mus musculus with 16 samples.

Results

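Podocyte polysome RNA was set against polysome RNA of the whole glomerulus, both from uninjured mice, to show which transcripts the tagged ribosomes of podocytes carried and which they lacked. The 8 samples whose titles name normal podocytes or normal glomerular cells, 4 of each, were taken out of the 16 in the series. All 8 came from Nphs1-RiboTag mice on the C57BL/6N background, with no NEP25 transgene named for them and no toxin given. Age, sex and the number of animals behind each array were not stated, so p-values measure only a spread between arrays, which may be technical. That spread was pooled within groups over all 16 arrays. The rest were podocyte arrays whose titles name the toxin LMB2 with day 4 or day 7, and they also entered the gene filter.

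The RiboTag allele alters Rpl22, which encodes a ribosomal protein, so that ribosomes carry an HA epitope once Cre recombinase has acted in a cell. In Nphs1-RiboTag mice the Cre gene is driven by Nphs1, so the tag appears where that driver is or has been active. The labels state that polysomes pulled down with an antibody to HA gave the podocyte RNA, and glomerular RNA came from polysomes that had not been precipitated. Whether the second was the starting lysate or what was left after the pull-down is not stated. Precipitation and cell type therefore differ together between the groups and cannot be told apart. In such bulk RNA, fewer cells of a type and less RNA per cell cannot be told apart either.

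The glomerulus filters blood through a wall of 3 layers: a fenestrated endothelium, a basement membrane, and podocytes whose interlocking foot processes are joined by the slit diaphragm. Mesangial cells hold the capillary loops together, and parietal epithelial cells line the surrounding capsule. Podocytes are post-mitotic cells that supply the endothelium with vascular growth factor and make much of the mature basement membrane. Preparations of glomeruli usually also carry some tubule and blood cells.

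Every level given here is the log2 processed intensity of a gene's probe minus the 75th percentile of its array. A difference is the podocyte mean minus the glomerular mean on that log2 scale, with limma's standard error (SE) and n = 4 arrays per group. Calls required an adjusted p under 0.05 from limma, with the Benjamini-Hochberg method over all 14574 genes. On the podocyte arrays 49.3% to 54.0% of spots were well above background, and on the glomerular arrays 55.3% to 57.5%. No spot was saturated. Arrays of 1 group correlated at 0.982 to 0.991 across genes and arrays of different groups at 0.862 to 0.891. Precision is limited by having 4 arrays in each group.

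The difference reached most of the genes measured. Of the 14574 genes, 7514 were called higher in podocyte RNA, a background of 51.6%, and 4012 lower, 27.5%. At least 2-fold differences were called for 2826 higher genes (19.4%) and 3151 lower genes (21.6%). The 2 sets of arrays did not overlap for 10646 genes (73%). Counts given below for any gene list are to be read beside these shares. The differences were lopsided in size: the median over all genes was 0.38, while the falls reached much further than the rises. Only 37 genes were higher by a log2 difference of 3 or more, and 480 were lower by more than 4. The median over all genes ranged from 0.17 to 0.70 with the scaling and background correction used, so small shifts are read against that median. By detection, 552 genes were well above background on all glomerular arrays and on no podocyte array, against 16 the other way round.

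The labelled cell type was checked first on its markers. Nphs1 encodes nephrin, the backbone of the slit diaphragm and the gene whose driver switched on the tag. Its level on the podocyte arrays was 8.0, 7.91, 7.75 and 7.52, and on the glomerular arrays 5.27, 5.78, 5.75 and 5.09. The groups were well apart, with every podocyte array above every glomerular one, at a difference of 2.32 ± 0.15 (5.0-fold, adjusted p = 7.4e-09). Podxl, the sialomucin that coats the foot processes, read 7.86, 7.70, 7.79 and 7.64 in podocyte RNA and 5.28, 5.46, 5.57 and 5.19 in glomerular RNA. The Podxl groups did not overlap, and the difference was 2.38 ± 0.12. Wt1, a zinc finger transcription factor of the podocyte, lay at 8.70, 8.59, 8.66 and 8.55 against 6.38, 6.36, 6.51 and 6.05, a difference of 2.30 ± 0.10. Synpo, the foot process actin binder synaptopodin, was higher by 1.54 ± 0.12.

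**Figure D1:**
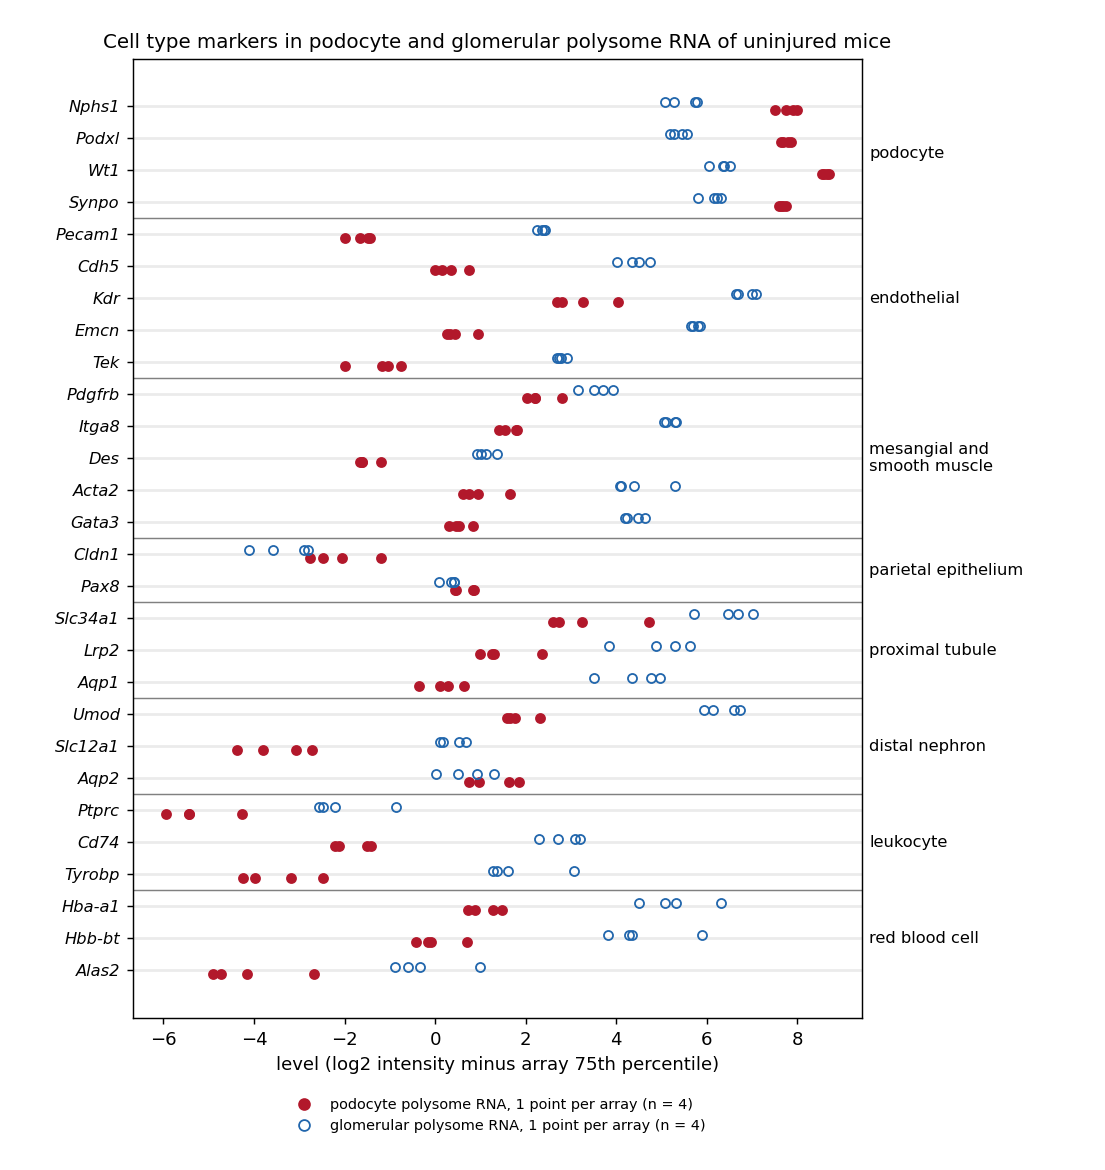
Levels of cell type markers on each array (log2 intensity minus the array's 75th percentile), with filled points for the 4 podocyte arrays and open points for the 4 glomerular arrays. Podocyte markers lie to the right in podocyte RNA and endothelial, mesangial, proximal tubule and blood markers to the left. The parietal gene Cldn1 lies to the right in podocyte RNA (1.22), while Pax8 and Aqp2 differ by 0.34 and 0.61.

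Markers of endothelial and mesangial cells went down. Pecam1, an adhesion molecule of endothelial junctions, stood at -1.98, -1.43, -1.49 and -1.65 in podocyte RNA and at 2.41, 2.37, 2.43 and 2.26 in glomerular RNA. The gap was wide beside the spread within each group, with a difference of -4.01 ± 0.15 (16.1-fold lower, adjusted p = 1.8e-10). Pdgfrb, the receptor that marks mesangial cells and pericytes, moved much less. It read 2.22, 2.20, 2.80 and 2.03 in podocyte RNA and 3.51, 3.71, 3.94 and 3.16 in glomerular RNA. That is a difference of -1.27 ± 0.22 (adjusted p = 8.2e-05) without overlap. Other mesangial markers were lower by more: Itga8, the integrin chain of mesangial cells, by -3.55 ± 0.21, the transcription factor Gata3 by -3.87 ± 0.27, smooth muscle actin Acta2 by -3.49 ± 0.32 and desmin, Des, by -2.63 ± 0.16. All of these genes still gave signals well above background on all 4 podocyte arrays.

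Transcription factors made up the list with the largest rise. Of 12 podocyte factors 10 were called higher and none lower. Their median was 2.33, where that of all genes was 0.38. Tcf21, a basic helix-loop-helix factor of podocyte development, led at 5.50, 4.99, 5.38 and 5.27 against 1.66, 1.60, 1.99 and 1.61. Its difference was 3.57 ± 0.17, or 11.9-fold. The forkhead factors Foxc2 and Foxd2 were higher by 2.97 ± 0.14 and 2.93 ± 0.11. Dach1, a nuclear corepressor, was higher by 2.67 ± 0.11.

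Slit diaphragm genes were mostly higher. Of 19 tested, 14 were called higher and 2 lower (median 1.74). The polarity genes Mpp5 (also called Pals1) and Crb2 led, at 2.85 ± 0.13 and 2.83 ± 0.18. Crb2, a Crumbs protein, read 6.49, 6.63, 6.74 and 6.44 against 3.28, 4.05, 4.14 and 3.53, with no overlap. Kirrel (Neph1), the binding partner of nephrin, was higher by 2.54 ± 0.20 and the phosphatase Ptpro by 2.50 ± 0.15.

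The 2 exceptions were Trpc6 and Magi1. Trpc6, a calcium channel whose gain-of-function mutations cause inherited glomerular disease, was dim: -5.16, -3.75, -3.59 and -2.29 in podocyte RNA and -1.60, -1.38, -0.65 and -1.55 in glomerular RNA. Podocyte replicate 4 came nearest to the glomerular arrays, and the difference was -2.40 ± 0.62 (adjusted p = 0.0027). Magi1, a junctional scaffold, was tight in both groups at -0.47, -0.46, -0.51 and -0.61 against 0.91, 0.77, 0.85 and 0.90, a difference of -1.37 ± 0.17.

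Kirrel2, the nephrin relative filtrin, showed that the replicate number matters. Its level in podocyte RNA was 2.97, 6.27, 6.21 and 2.77 and in glomerular RNA 0.17, 3.83, 3.93 and 0.40. Replicates 2 and 3 were high and replicates 1 and 4 low in both kinds of RNA, so the groups overlapped while each pair differed by a like amount, 2.80, 2.44, 2.28 and 2.38. The difference of 2.47 ± 0.93 was called at an adjusted p of 0.024. That call was lost with quantile normalization (adjusted p = 0.051), in the 8 arrays without a block (0.089), and without podocyte replicate 2 (0.083) or 3 (0.081) or glomerular replicate 1 (0.086) or 4 (0.083). With the replicate number as a block, fitted on the 8 arrays, the call was kept.

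Surface molecules and receptors of podocytes, listed with some intracellular genes such as Cdkn1c, behaved as a bloc with 3 departures. Of 22 genes 19 were called higher and 3 were lower, beside 51.6% and 27.5% of all genes. The list median was 2.14. Arrays did not overlap for any of the 22, beside 73% of all genes without overlap. Pdpn, the mucin podoplanin, was higher by 2.65 ± 0.20, Thsd7a, a target of autoantibodies in membranous nephropathy, by 2.52 ± 0.18, and the heparan sulfatase Sulf1 by 2.52 ± 0.14. Cdkn1c, the cell cycle inhibitor p57 and a mark of mature podocytes, read 9.52, 9.56, 9.55 and 9.52 against 7.21, 7.48, 7.43 and 7.02, the smallest spread of these genes in podocyte RNA.

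Pla2r1, the main autoantigen of human membranous nephropathy, was the sharpest departure. It lay at -3.92, -3.23, -3.29 and -3.44 in podocyte RNA and at 0.98, 0.95, 0.65 and 0.34 in glomerular RNA. All podocyte arrays were below all glomerular arrays, at a difference of -4.20 ± 0.21 (18.4-fold lower, adjusted p = 6.1e-10). Plxna2, a semaphorin receptor, was lower by -3.53 ± 0.27, and Nrp1, a coreceptor of VEGF and semaphorins, by -2.08 ± 0.14.

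The cytoskeletal list gave 16 higher and 4 lower of 22, with a median of 1.17. Rhophilin (Rhpn1) was higher by 2.18 ± 0.15, parvin (Parva) by 2.07 ± 0.08, vimentin (Vim) by 2.06 ± 0.11 and the formin Inf2 by 1.81 ± 0.17. The lower members were anillin (Anln, -2.83 ± 0.45), the non-muscle myosin heavy chain Myh10 (-1.24 ± 0.25), the GTPase-activating protein Dlc1 (-0.97 ± 0.22) and vinculin (Vcl, -0.51 ± 0.13). Vcl was no longer called when each array's median was set to 0 (-0.20, adjusted p = 0.21).

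Genes of inherited nephrotic syndrome were also mixed. Among 57 mouse counterparts of the human genes, 44 were called higher and 8 lower (median 0.86). The lower ones were Kank4, a cytoskeletal regulator, at -3.72 ± 0.36, the endocytic receptor Cubn at -3.61 ± 0.62, the hemidesmosome integrin Itgb4 at -2.89 ± 0.26, Anln, Trpc6, Dlc1, the chloride transporter Clcn5 at -0.95 ± 0.22 and the lysosomal receptor Scarb2 at -0.38 ± 0.11. The family of Kank4 split, since Kank1, chosen after its values were seen, was higher by 2.51 ± 0.13. Kank4 read -2.75, -2.35, -2.01 and -2.24 against 1.49, 1.20, 1.26 and 1.57. Kank1 read 5.93, 5.80, 6.02 and 6.02 against 3.19, 3.23, 3.79 and 3.51, the reverse order and also without overlap. Scarb2 overlapped and lost its call with each array's median at 0 (-0.06, adjusted p = 0.71).

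**Figure D2:**
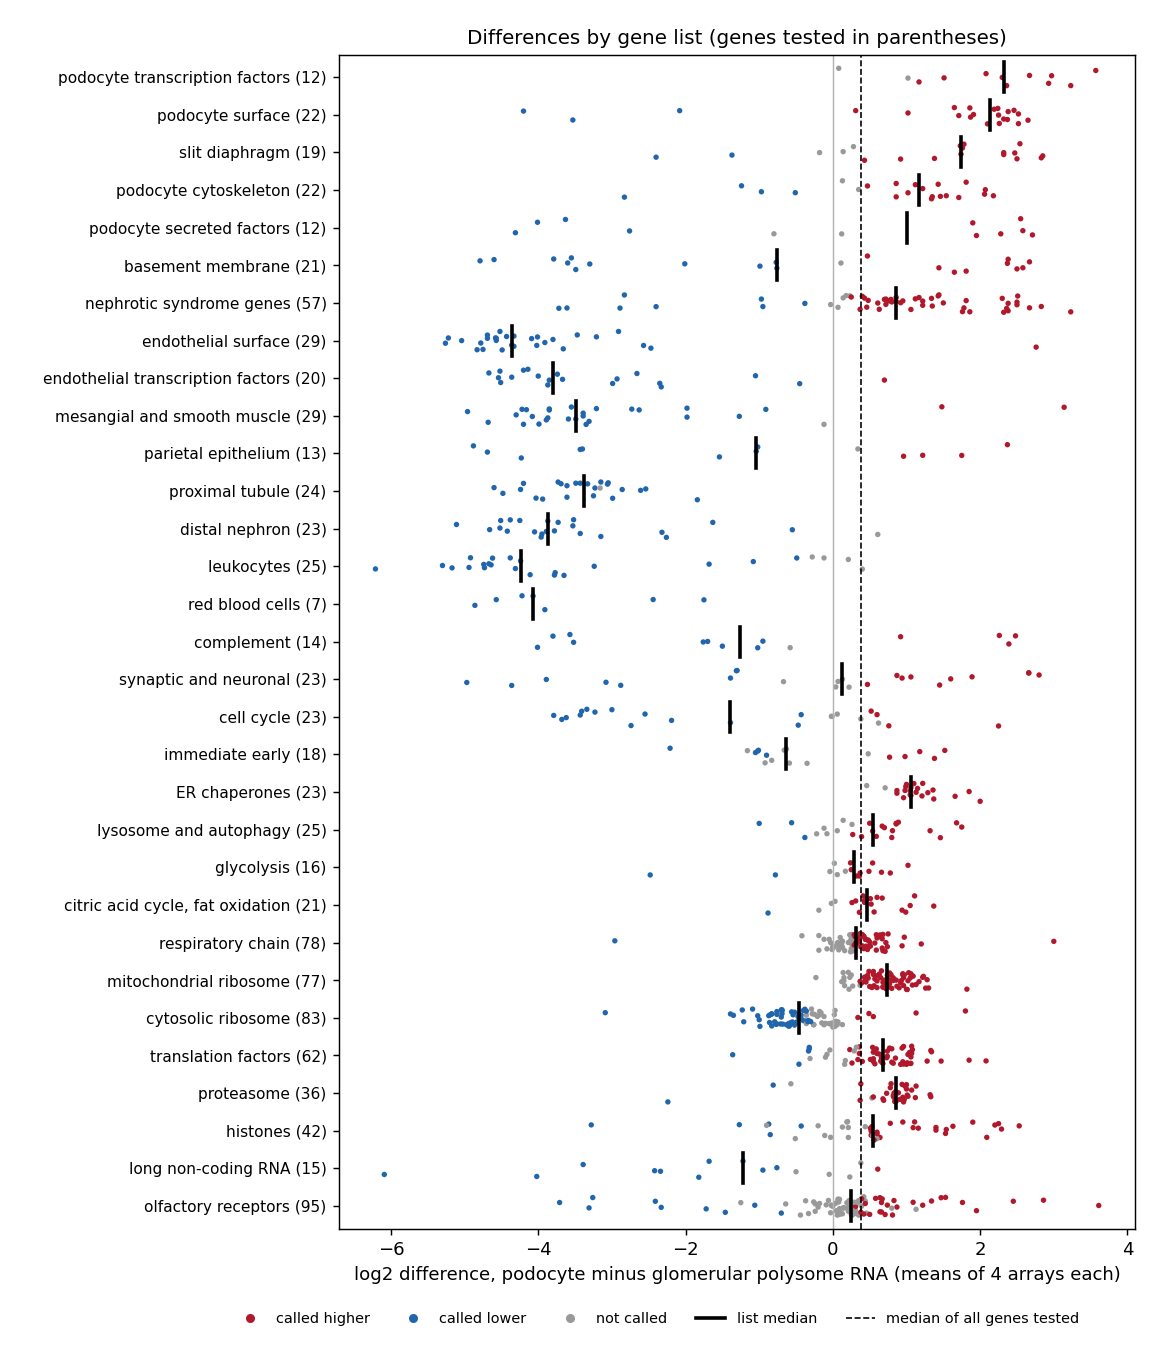
Log2 difference of every tested gene in each list (points, coloured by call), with the list median as a bar, the median of all genes as a dashed line, and the number of genes tested in parentheses. Podocyte lists lie right of the dashed line apart from single genes, endothelial, mesangial, tubule and blood lists lie far left, and basement membrane genes split into 2 clumps.

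Basement membrane genes divided along known isoforms. Of 21 tested, 9 were called higher and 11 lower (median -0.76, between the clumps). The collagen IV chains of the mature membrane were higher: Col4a3 by 2.67 ± 0.20, Col4a4 by 2.50 ± 0.15 and Col4a5 by 2.38 ± 0.14. Col4a3 read 5.35, 5.82, 5.20 and 5.26 in podocyte RNA and 2.48, 3.19, 2.74 and 2.54 in glomerular RNA. Col4a1 and Col4a2, the chains of vascular and mesangial matrix, went the other way by -3.79 ± 0.28 and -3.60 ± 0.24. For Col4a1 the arrays read 0.38, 0.89, 0.32 and 0.00 against 4.36, 4.73, 4.03 and 3.65. Each chain kept its groups apart.

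Laminin chains showed the same division. Lamb2, the beta chain of the mature membrane, was higher by 1.44 ± 0.13 and Lama5, its alpha chain, by 0.47 ± 0.16, which is close to the median of all genes and lost its call with quantile normalization (0.12, adjusted p = 0.50). Lamb1, the beta chain of immature and mesangial matrix, was lower by -3.55 ± 0.22 and Lama4, the alpha chain of vessels, by -4.79 ± 0.24. Agrn, the heparan sulfate proteoglycan agrin, was higher by 1.65 ± 0.15 and Npnt, the integrin ligand nephronectin, by 2.58 ± 0.15. Tinagl1, a matrix protein related to tubulointerstitial nephritis antigen, was lower by -4.60 ± 0.27. Col4a6 was higher by 2.37 ± 0.21, with its other probe at 0.97.

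Secreted factors of podocytes were divided. Of 12 tested, 6 were called higher and 4 lower. Semaphorin 3G (Sema3g) was higher by 2.71 ± 0.26. Fgf1, a fibroblast growth factor, read 1.68, 1.83, 2.28 and 2.05 in podocyte RNA and 6.43, 6.07, 6.39 and 6.17 in glomerular RNA. That difference of -4.31 ± 0.25 had both of its probes within -4.37 to -4.31. Pdgfa, a platelet-derived growth factor, was lower by -3.63 ± 0.17.

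Signalling between the cells was described from ligands and receptors. Vegfa, which keeps the glomerular endothelium fenestrated, was 7.80, 7.61, 7.97 and 7.70 in podocyte RNA and 5.0, 5.23, 5.64 and 5.03 in glomerular RNA, a difference of 2.55 ± 0.15. Its receptors were on the other side. Kdr read 2.69, 2.80, 4.04 and 3.26 against 7.01, 6.70, 7.09 and 6.64 (-3.66 ± 0.28, with a second probe at -1.08), and Flt1 read 2.73, 2.59, 4.02 and 3.54 against 6.88, 6.48, 6.81 and 6.58 (-3.47 ± 0.29). Podocyte replicate 3 was the highest of its group for both receptors.

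The other VEGF family ligands were all lower: Vegfc by -3.70 ± 0.42, Vegfd by -4.40 ± 0.40, placental growth factor Pgf by -2.82 ± 0.25, and Vegfb by only -0.49 ± 0.14, a call lost with each array's median at 0 (-0.17, adjusted p = 0.37). Flt4, the receptor for Vegfc and Vegfd, was well above background on no podocyte array and was at least 11.4-fold lower, and the coreceptor Nrp2 was lower by -3.26 ± 0.21. Such a bound sets the glomerular mean against the lowest signal that counted as well above background on each podocyte array, or the probe's own value where higher.

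Angiopoietins and their receptor were lower together. Angpt1, the agonist of the Tie2 receptor, read -2.87, -4.87, -2.55 and -2.33 against -0.29, -0.92, -0.16 and -0.21, a difference of -2.76 ± 0.48, and it was above background on 3 podocyte arrays. Angpt2, the context-dependent antagonist, was lower by -3.88 ± 0.25, the receptor Tek (Tie2) by -4.02 ± 0.30 and the orphan Tie1 by -4.58 ± 0.33. Adrenomedullin (Adm), a vasodilator peptide, was the only other ligand of this list called higher, at 2.00 ± 0.18, while its receptor pair Calcrl and Ramp2 was lower by -4.43 ± 0.32 and -4.75 ± 0.21. The apelin gene Apln was lower by -3.86 ± 0.41. In all, 2 of these 18 genes were called higher and 16 lower (median -3.68).

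**Figure D3:**
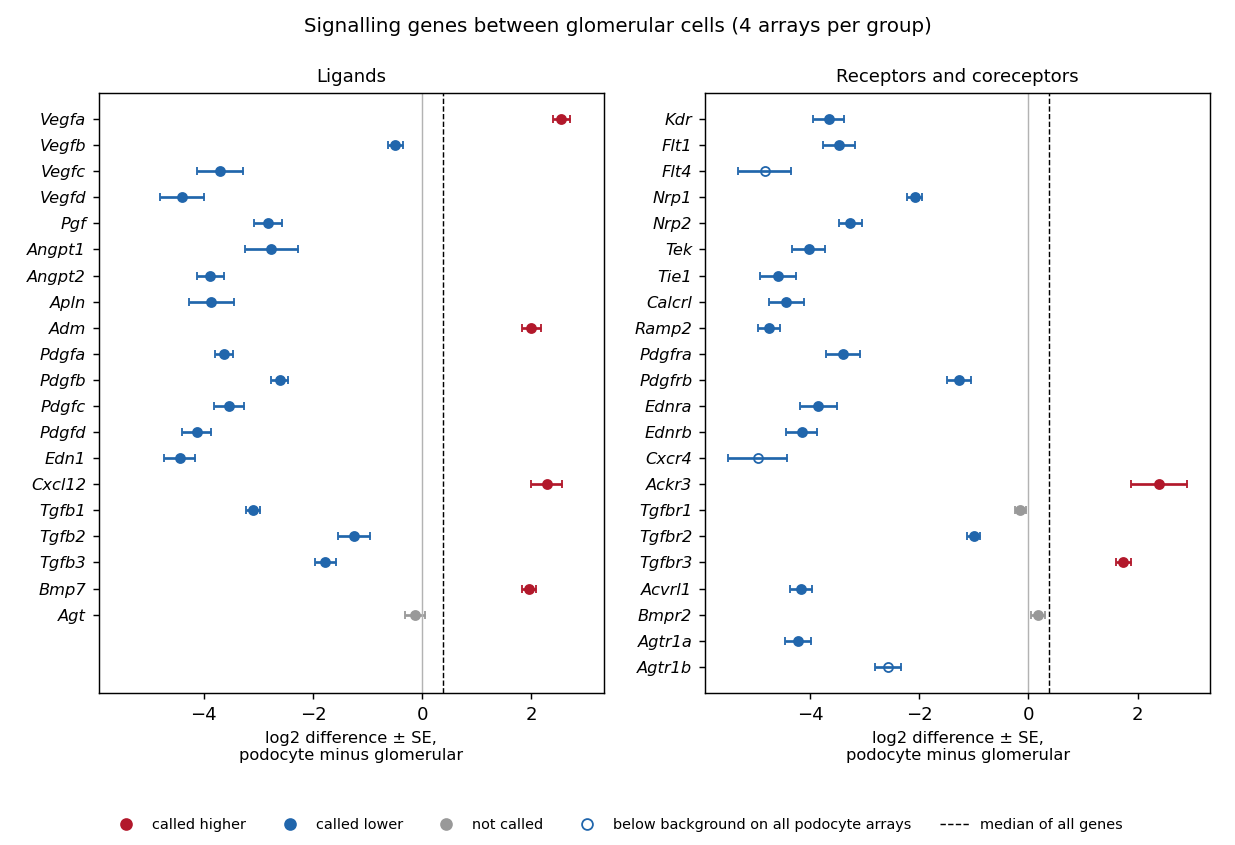
Log2 difference with its SE for ligands (left) and receptors (right), 4 arrays per group, with the median of all genes as a dashed line and open points for genes below background on all podocyte arrays. Vegfa, Adm, Cxcl12 and Bmp7 are the ligands to the right, and Ackr3 and Tgfbr3 the receptors.

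The chemokine Cxcl12 and its receptors gave a similar layout. Cxcl12 was higher at 5.52, 6.43, 5.90 and 5.30 against 2.96, 4.14, 3.96 and 2.96 (2.28 ± 0.28). Cxcr4, its signalling receptor, was above background on all glomerular arrays and no podocyte array, at least 12.1-fold lower. Ackr3, the scavenging receptor for the same chemokine, read 5.46, 2.47, 4.03 and 4.77 in podocyte RNA and 2.48, 0.77, 1.92 and 2.00 in glomerular RNA. Podocyte replicate 2 fell just below glomerular replicate 1, so the groups overlapped, and the difference of 2.39 ± 0.52 was called (adjusted p = 0.00066).

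The 4 PDGF ligands, Pdgfa, Pdgfb, Pdgfc and Pdgfd, were lower by -3.63 ± 0.17, -2.61 ± 0.16, -3.54 ± 0.28 and -4.13 ± 0.26, and their receptor Pdgfra by -3.39 ± 0.31. Endothelin 1 (Edn1) was lower by -4.44 ± 0.29, its receptors Ednra and Ednrb by -3.85 ± 0.34 and -4.15 ± 0.28, and the converting enzyme Ece1 by -2.40 ± 0.26.

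In the renin-angiotensin system, the receptor Agtr1a, through which angiotensin II acts, was lower by -4.22 ± 0.23. Its paralog Agtr1b was well above background on no podocyte array and at least 1.22-fold lower. Renin (Ren1) was lower by -3.39 ± 0.38, the converting enzyme Ace by -1.20 ± 0.13, and angiotensinogen (Agt) was not called (-0.13 ± 0.19, adjusted p = 0.55). The nitric oxide synthase Nos3 was lower by -2.47 ± 0.39, and the nitric oxide receptor subunits Gucy1a1 and Gucy1b1 by -3.21 ± 0.36 and -2.87 ± 0.37.

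TGF-beta signalling was lower in ligands and uneven in receptors. Tgfb1, Tgfb2 and Tgfb3 were lower by -3.09 ± 0.13, -1.25 ± 0.29 and -1.77 ± 0.19. The type 2 receptor Tgfbr2 was lower by -1.0 ± 0.12, and Tgfbr1 was not called (-0.15 ± 0.10), although quantile normalization called it lower (-0.34, adjusted p = 0.0034). The coreceptor betaglycan, Tgfbr3, was higher by 1.74 ± 0.14. Bmp7, a ligand needed for nephron formation, was higher by 1.95 ± 0.13. Its type 2 receptor Bmpr2 was not called (0.18 ± 0.13), although it was called higher with each array's median at 0 (0.49, adjusted p = 0.017). Acvrl1, an endothelial receptor of the same superfamily, was lower by -4.17 ± 0.20. Of the 31 genes in the PDGF, endothelin, angiotensin, chemokine and TGF-beta list, 4 were called higher and 24 lower (median -2.61).

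Endothelial genes were lower nearly throughout. Of 29 surface genes 28 were called lower and 1 higher, at a median of -4.36, and of 20 transcription factors 19 were lower and 1 higher, at -3.80. Emcn, the sialomucin of glomerular and venous endothelium, read 0.26, 0.95, 0.44 and 0.32 against 5.85, 5.65, 5.81 and 5.69, a 38.3-fold difference. Icam2, an adhesion molecule, and Ecscr, an endothelial signalling protein, were lower by -5.04 ± 0.25 and -5.22 ± 0.24. Among the factors, Sox18, Sox7, Sox17 and Hhex were lower by -4.67 ± 0.23, -4.54 ± 0.23, -4.52 ± 0.30 and -4.51 ± 0.25, and Fli1, an ETS factor, by -4.36 ± 0.25.

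The exceptions were Cldn5 and Nr2f2. Cldn5, a tight junction claudin of endothelium that podocytes are also known to make, was 8.47, 8.18, 8.38 and 8.25 in podocyte RNA and 5.38, 5.58, 5.98 and 5.29 in glomerular RNA. The Cldn5 groups were far apart, with a difference of 2.76 ± 0.17 (6.78-fold). Nr2f2, a nuclear receptor of venous endothelium, was higher by 0.70 ± 0.14.

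Sequences upstream of these genes were searched because members of the podocyte and endothelial lists moved together. RefSeq windows on GRCm38.p6, 250 bases before to 50 bases after the start, were at hand for 11582 of the 14574 genes. Both strands were searched for 6 motifs: TAATTA (homeodomain core), GTAAACA (forkhead core), TGCTGAC (MAF half-site), GCGTGGGAG (WT1 core), CAGCTG (E-box) and CAGGAAG (ETS core). Among the 379 genes called higher by a log2 difference of 2 or more, the shares were near those of all genes, for example 4.0% against 4.7% for the MAF half-site and 0.5% against 0.9% for the WT1 core. Among the 1122 genes called lower by 3 or more, 5 of the 6 motifs had larger shares than among all genes. These were 5.8% against 3.7% for the homeodomain core, 3.8% against 3.2% for the forkhead core, 6.2% against 4.7% for the MAF half-site, 23.9% against 18.3% for the E-box and 19.5% against 14.8% for the ETS core. These shares are descriptions, and a match is no binding site. Shown are the window of Emcn (chr3:137340828-137341127, plus strand), where capitals mark the ETS core read on the opposite strand and a MAF half-site is also present, and that of Nphs1 (chr7:30459808-30460107, plus strand), the driver of the tag, which holds none of the 6 motifs.
Emcn: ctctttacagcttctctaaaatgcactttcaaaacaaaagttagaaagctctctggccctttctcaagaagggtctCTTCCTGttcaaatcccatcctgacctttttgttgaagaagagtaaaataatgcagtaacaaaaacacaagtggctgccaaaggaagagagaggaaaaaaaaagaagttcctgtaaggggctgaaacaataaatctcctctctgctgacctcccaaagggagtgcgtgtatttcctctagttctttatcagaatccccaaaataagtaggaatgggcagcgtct
Nphs1: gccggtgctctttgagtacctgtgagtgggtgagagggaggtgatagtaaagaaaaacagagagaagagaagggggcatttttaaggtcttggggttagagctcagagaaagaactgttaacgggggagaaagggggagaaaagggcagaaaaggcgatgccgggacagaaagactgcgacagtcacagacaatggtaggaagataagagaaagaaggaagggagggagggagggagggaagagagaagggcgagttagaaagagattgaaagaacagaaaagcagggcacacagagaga

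Mesangial, juxtaglomerular and smooth muscle genes gave 26 lower and 2 higher of 29, with a median of -3.49. Thy1, a surface glycoprotein, was lower by -4.96 ± 0.83 but above background on only 1 podocyte array. Ndufa4l2, a mitochondrial protein of pericytes, was lower by -4.68 ± 0.23 and Nt5e, the ectonucleotidase CD73, by -4.30 ± 0.31. The 2 that were higher were Foxd1, a forkhead factor of the renal stroma that also acts in podocyte development, and Mylk, the myosin light chain kinase. Foxd1 read 4.42, 3.88, 4.30 and 4.03 against 0.95, 0.99, 1.36 and 0.77 (3.14 ± 0.18). Mylk read 4.38, 4.45, 4.33 and 4.52 against 2.86, 2.98, 3.08 and 2.84 (1.48 ± 0.09).

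Parietal epithelial genes had no common direction. Of 13 tested 4 were called higher and 8 lower. Wfdc2, a secreted whey acidic protein, Cd9, a tetraspanin, and Cd24a, a surface glycoprotein, were lower by -4.88 ± 0.33, -4.69 ± 0.26 and -4.23 ± 0.23, and the keratins Krt18 and Krt8 by -3.43 ± 0.42 and -3.40 ± 0.63. The higher ones were the retinoic acid synthase Aldh1a2 (2.37 ± 0.23), the adhesion molecule Ncam1 (1.75 ± 0.27), the tight junction gene Cldn1 (1.22 ± 0.36) and Dkk3 (0.96 ± 0.31), a Dickkopf family member whose call was lost with quantile normalization (0.66, adjusted p = 0.059). Pax8 missed the threshold (0.34 ± 0.23, adjusted p = 0.19), and was called higher with the replicate block (adjusted p = 0.025) and with each array's median at 0 (0.65, adjusted p = 0.018).

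Tubule genes were lower with none called higher. Of 24 proximal tubule genes 23 were called lower, at a median of -3.38, and of 23 distal nephron genes 22, at -3.87. Slc34a1, the phosphate carrier of the proximal tubule, read 2.60, 2.74, 3.25 and 4.73 in podocyte RNA and 6.70, 6.47, 5.73 and 7.03 in glomerular RNA. Podocyte replicate 4 was the highest of its group, as was glomerular replicate 4 of its own, and the mean level of the whole proximal list was 2.02 on podocyte replicate 4 against 0.38 to 0.74 on the other podocyte arrays. Umod, uromodulin of the thick ascending limb, was lower by -4.52 ± 0.41. Aqp2, the water channel of the collecting duct, missed the threshold (0.61 ± 0.31, adjusted p = 0.083), and the replicate block called it higher (SE 0.16, adjusted p = 0.015). It was also called with each array's median at 0 (0.93, adjusted p = 0.011), without podocyte replicate 3 (0.80, adjusted p = 0.036) and without glomerular replicate 4 (0.82, adjusted p = 0.028).

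Blood cell genes were lower too. Of 25 leukocyte genes 21 were called lower and none higher, at a median of -4.24, and 5 of them were above background on no podocyte array. The median of the list shrank to -1.57 when the background was corrected by normexp and scaled to the 75th percentile. The neutrophil calprotectin gene S100a8 read -6.75, -7.12, -3.36 and -4.75 against -0.25, -0.75, 2.59 and 1.26, above background on 1 podocyte array and highest on replicate 3 of both groups. Tyrobp, an adaptor of myeloid receptors, was lower by -5.30 ± 0.55, and the dendritic cell integrin Itgax by at least 11.3-fold. All 7 red cell genes were lower (median -4.07), among them the globins Hba-a1 by -4.22 ± 0.56 and Hbb-bs by -4.86 ± 0.71. Globin and Hba or Hbb copies are near identical, so their single values are uncertain.

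Complement genes differed in both directions. Of 14 tested 4 were called higher and 9 lower. The higher ones all encode membrane-bound regulators: Cd59b by 2.48 ± 0.22, Cd59a by 2.39 ± 0.13, Cd55 by 2.26 ± 0.15 and Cr1l (Crry) by 0.92 ± 0.11. Cd55, decay accelerating factor, read 6.08, 6.02, 5.99 and 5.69 against 3.60, 3.86, 4.05 and 3.23. Factor B (Cfb) was lower by -3.57 ± 0.74, clusterin (Clu) by -3.52 ± 0.20 and thrombomodulin (Thbd), also a membrane protein, by -3.80 ± 0.24. Cd59a and Cd59b are paralogs whose probes may share signal.

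The 15 largest rises among genes above background on all 8 arrays mixed podocyte factors with genes better known elsewhere. Besides Tcf21 and Foxd1 they included Sox8, a SoxE factor, Myoz1, a calcineurin-binding muscle protein, Myl3, a ventricular myosin light chain, Comp, a cartilage matrix protein, Gdf5, a joint morphogen, Fgfbp1, a carrier of fibroblast growth factors, Rarres1, a retinoic acid response gene, the kinase Stk26, Ube2ql1, Sowahd, Banp and an olfactory receptor. They ran from 3.12 for Banp, whose other probe gave 0.96, to 3.61 for Olfr629. Comp read 3.89, 3.45, 3.56 and 3.47 against 0.40, 0.48, 0.68 and 0.17 (3.16 ± 0.14). Gdf5 varied among replicates, at 3.34, 2.38, 4.71 and 3.86 against -0.04, -0.50, 1.76 and 0.51, and the replicate order was the same in both groups.

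Detection alone picked out Foxa2, a forkhead factor of endoderm, which was at least 8.27-fold higher, followed by the syntrophin Sntg2 (at least 5.90-fold), Syna, Asb15 and Cox7b2. Foxa2 read -3.47, -2.08, -1.41 and -1.42 in podocyte RNA. The largest falls by detection were Sirpb1b (at least 26.3-fold), a myeloid receptor, Arhgap15 (21.8), the blood group carrier Art4 (21.0), with another probe at -2.67, the angiogenesis inhibitor Cnmd (20.6) and the melanocortin receptor Mc4r (20.6).

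The 15 largest falls among genes above background everywhere were led by Srgn, the granule proteoglycan serglycin, at 0.72, 1.22, 0.74 and 0.66 against 6.32, 6.05, 6.26 and 6.04 (-5.33 ± 0.28, 40.2-fold). Fxyd5, an ion pump regulator, followed at -5.32 ± 0.23. Besides Tyrobp, Emcn, Ecscr and Icam2 there were Plbd1, Ctla2b, Dlk1, the distal tubule genes Tmem213 and Defb1, and tissue kallikreins. Klk1 was lower by -5.03 ± 0.42 and Klk1b4, Klk1b8 and Klk1b24 by -5.11, -5.08 and -5.04. The kallikrein copies are near identical, and their values moved in step across arrays, so they cannot be taken as separate genes.

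Of 95 olfactory receptor genes that passed the filter, out of 1061 on the array, 27 were called higher and 9 lower, and 59 were not called. Both directions were called less often than among all genes, where the shares were 51.6% and 27.5%. Olfr629 read 3.25, 3.07, 2.97 and 2.95 against -0.50, -0.27, -0.56 and -0.88 (3.61 ± 0.18), and Olfr1247 was higher by 2.86 ± 0.23. Olfr558 and Olfr78, receptors known from renal vessels and juxtaglomerular cells, were lower, Olfr558 by -3.71 ± 0.35 and Olfr78 by at least 2.59-fold. Receptor genes of this family resemble one another, so single values are uncertain.

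Neuronal and synaptic genes were called in both directions: 10 of 23 higher and 8 lower, beside 51.6% and 27.5% of all genes. Their median was 0.13, against 0.38 for all genes. The synaptic vesicle genes Syn1 (2.80 ± 0.16) and Rab3b (2.66 ± 0.12) and the neurotrophin receptor Ntrk3 (2.66 ± 0.21) were higher, all named after their values were seen. Rab3b read 8.12, 7.78, 8.02 and 7.98 against 5.37, 5.11, 5.62 and 5.18. The tubulin regulator Stmn2 was lower by -4.97 ± 0.60, the ubiquitin hydrolase Uchl1 by -4.36 ± 0.32 and the neurotrophin receptor Ntrk2 by -3.08 ± 0.27. Ntrk2 and Ntrk3 thus differed in opposite directions.

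Cell cycle genes were more often lower than higher. Of 23 tested 14 were called lower, 5 were not called and 4 were higher, with a median of -1.39, which was -0.22 over the 18 genes above background on all 8 arrays. Mki67, the proliferation antigen, read -4.03, -3.21, -3.63 and -4.40 against -0.27, 0.20, -0.51 and -1.03. Cyclins Ccna2 and Ccnb2 were lower by -3.79 ± 0.38 and -3.62 ± 0.39, with podocyte signals above background on only 1 and 2 arrays. The mitotic kinase gene Aurka (0.62, adjusted p = 0.07), the checkpoint gene Bub1b (0.06) and the cyclins Ccne1 (0.38) and Ccnd3 (-0.01) were among those not called. The inhibitor Cdkn1a (p21) was lower by -3.68 ± 0.50, at -0.49, -0.73, -2.29 and -2.34 against 3.12, 2.82, 1.58 and 1.35, higher on replicates 1 and 2 of both groups. Higher were Cdkn1c, the replication helicase genes Mcm4 (0.76 ± 0.13) and Mcm5 (0.52 ± 0.16), and the inhibitor Cdkn1b (0.60 ± 0.16), which was not called with quantile normalization (0.22, adjusted p = 0.15).

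Immediate early genes were divided: 5 of 18 were called higher and 5 lower, and with the replicate number as a block 6 and 9. The higher count was 3 without podocyte replicate 1 or 3 or glomerular replicate 2 or 4, and the lower count was 8 without podocyte replicate 3 or glomerular replicate 2. Jund and Ier3 were higher by 1.52 ± 0.16 and 1.38 ± 0.19 and Klf6 by 1.18 ± 0.24. Fos read -1.78, -3.26, 0.15 and -2.66 against -0.04, -2.33, 0.92 and -1.47. Each pair differed in the same direction, and the difference of -1.16 ± 0.71 missed the threshold (adjusted p = 0.15) but was called with the block (SE 0.17, adjusted p = 0.0018). It was also called without podocyte replicate 3 (-1.84, adjusted p = 0.016) or glomerular replicate 2 (-1.69, adjusted p = 0.039).

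Protein folding and turnover genes were higher. In the endoplasmic reticulum list 21 of 23 genes were called higher and none lower. The list median was 1.06, where that of all genes was 0.38, and with quantile normalization these were 0.85 and 0.26. Pdia4, a disulfide isomerase, read 4.88, 4.99, 4.64 and 4.45 against 2.73, 3.02, 2.78 and 2.45 (2.00 ± 0.20), and the chaperone Hyou1 was higher by 1.85 ± 0.16. Of 36 proteasome subunits 32 were higher and 2 lower, at a median of 0.86. The lower ones were Psmb8 (-2.24 ± 0.32) and Psmb10 (-0.81 ± 0.24), catalytic subunits of the immunoproteasome. Psmb10 lost its call with each array's median at 0 (-0.50, adjusted p = 0.085). Lysosomal cathepsin L (Ctsl), which podocytes are known to express, was higher by 1.68 ± 0.12 and the autophagy genes Sqstm1 and Atg7 by 1.75 ± 0.16 and 1.46 ± 0.08.

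Translation genes did not move as 1 class. Of 62 initiation and elongation factors 49 were called higher and 5 lower (median 0.68), with the initiation factor Eif3m at 7.47, 7.24, 7.48 and 7.31 against 5.33, 5.17, 5.55 and 5.16 (2.08 ± 0.12). Mitochondrial ribosomal proteins were higher in 65 of 77 and lower in none (median 0.73), led by Mrps6 (1.82 ± 0.11). With quantile normalization the median was 0.38, with 53 higher and 3 lower. Cytosolic ribosomal proteins were lower in 52 of 83 and higher in 5, and their median was -0.46. That median was -0.66 with quantile normalization, where 73 were lower, and -0.15 with each array's median at 0, where 19 were lower. Rps19 was lower by -1.35 ± 0.18 and Rplp1 by -1.23 ± 0.16, while Rps4l, a copy of Rps4x, was higher by 1.80 ± 0.29. Ribosomal protein genes have many processed copies, so single values are uncertain.

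Rpl22, the gene that carries the tag, gave opposite readings from its 2 probes. The probe used read 3.94, 3.62, 3.61 and 3.58 in podocyte RNA and 5.27, 4.87, 5.24 and 4.96 in glomerular RNA (-1.39 ± 0.13). The other read 3.41, 2.98, 3.19 and 2.97 against 1.97, 1.5, 1.68 and 1.42, higher by 1.5. The mean of the probes gave 0.05, so no direction is given for Rpl22. Rpl22l1, its paralog, was not called (0.03 ± 0.16, adjusted p = 0.85).

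Energy metabolism stayed near the median of all genes. Its counts in the reported fit stand beside 51.6% of all genes called higher and 27.5% called lower. Respiratory chain subunits had a median of 0.32, with 43 of 78 called higher and 1 lower. With quantile normalization the median was 0.06, with 27 higher and 13 lower. The one lower was Cox6a2, the heart and muscle form of a cytochrome oxidase subunit (-2.96 ± 0.57), and Cox7b2 was at least 3.55-fold higher. Glycolysis genes were called higher in 10 of 16 and lower in 2, and with quantile normalization in 5 and 3. Lactate dehydrogenase B (Ldhb) was lower by -2.48 ± 0.37 and the glucose carrier Slc2a1 (Glut1) higher by 1.02 ± 0.12. In the citric acid cycle and fat oxidation list 17 of 21 were higher and 1 lower, with 8 and 3 under quantile normalization. Hadha, a fat oxidation enzyme, was higher by 1.37 ± 0.17 and the thiolase Acaa2 lower by -0.88 ± 0.22, not called with each array's median at 0 (-0.56, adjusted p = 0.062).

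Non-coding RNAs of the nucleus and nucleolus were among the lowest in podocyte RNA. Messenger RNA is carried on ribosomes, whereas these RNAs work in splicing, RNA processing or chromatin. Rmrp, the RNA of the ribonuclease MRP, read -6.52, -6.93, -6.81 and -6.85 in podocyte RNA and -0.52, -0.90, -0.52 and -0.80 in glomerular RNA. It was well above background on no podocyte array and at least 17.8-fold lower. Rpph1, the RNA of ribonuclease P, was above background on 2 podocyte arrays and lower by -4.02 ± 0.66, and Malat1, a nuclear speckle RNA, was lower by -3.39 ± 0.61. In the list of 15 such genes 10 were called lower and 1 higher. The higher one, Tug1, stood at 0.61 ± 0.18 and lost its call with quantile normalization (0.37, adjusted p = 0.08).

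The annotated classes, looked at after values were seen, showed the same for small nuclear RNAs. The U1 gene Rnu1b6 read -1.67, -1.41, -0.63 and -1.01 against 2.37, 2.89, 2.36 and 1.63 (-3.49 ± 0.30). The U2 gene Rnu2-10 was at least 9.71-fold lower, the U3 gene Rnu3b1 lower by -3.77 ± 0.64 and the U12 gene Rnu12 by -0.91 ± 0.19. Rnu7 (0.25 ± 0.16), the telomerase RNA Terc (0.23 ± 0.11) and the 28S ribosomal RNA gene Rn28s1 (0.26 ± 0.15) were not called. With each array's median at 0 all 3 were called higher, Rnu7 at 0.57 (adjusted p = 0.013), Terc at 0.55 (adjusted p = 0.00031) and Rn28s1 at 0.57 (adjusted p = 0.0073). Quantile normalization also called Rnu7 (adjusted p = 0.015) and Terc (adjusted p = 0.00011), and the replicate block called Terc (adjusted p = 0.031) and Rn28s1 (adjusted p = 0.016). Terc was called higher in 7 alternatives in all. Neat1, a paraspeckle RNA, was lower by only -0.76 ± 0.18. Over all 169 long non-coding RNA genes 26.0% were called higher and 37.9% lower, against 52.0% and 27.3% of 14302 protein-coding genes. Copies of the small RNA genes are near identical, so their single values are uncertain.

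**Figure D4:**
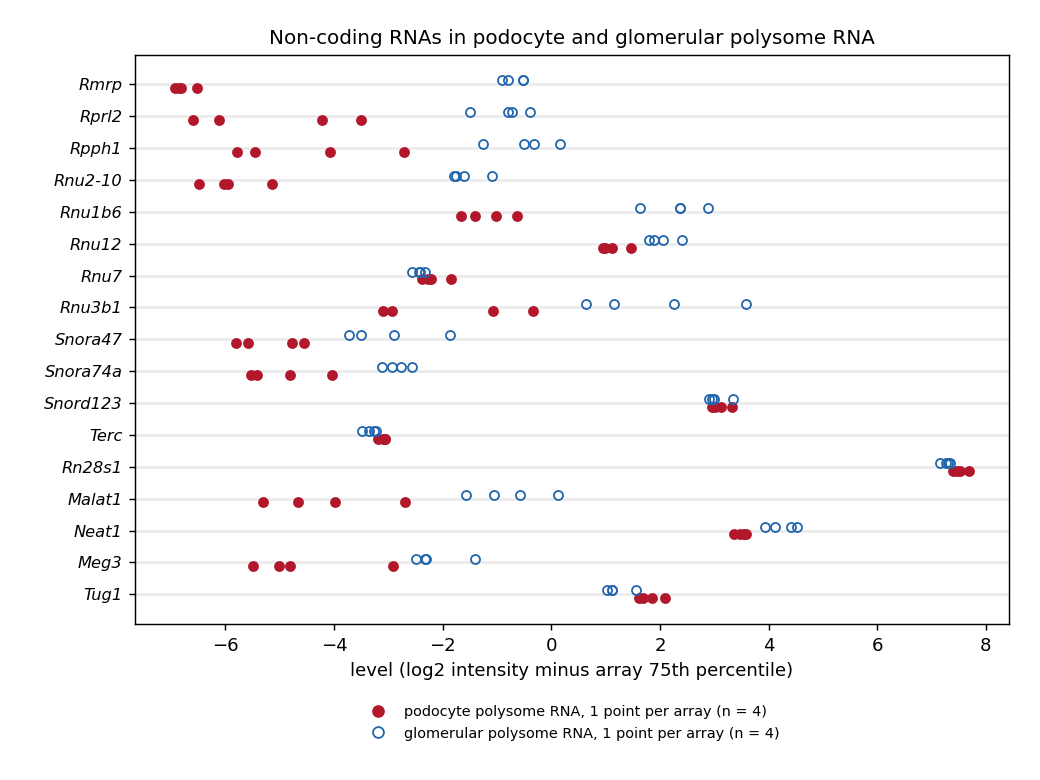
Levels of non-coding RNAs on each array (log2 intensity minus the array's 75th percentile), filled points for the 4 podocyte arrays and open points for the 4 glomerular arrays. Rmrp, the ribonuclease P genes Rpph1 and Rprl2, and the U1 and U2 genes lie far lower in podocyte RNA, while Rnu7, Terc and Rn28s1 differ by 0.23 to 0.26.

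Histone genes were called higher in 24 of 42 and lower in 5, beside 51.6% and 27.5% of all genes. Their median was 0.55, against 0.38 for all genes, and with the replicate block the lower count was 8. H2bc8 and H1f2 were higher by 2.53 ± 0.17 and 2.29 ± 0.20, and H2bc18 lower by -3.28 ± 0.60, at -2.22, -2.10, -4.96 and -3.59 against 0.64, 1.0, -0.79 and -0.60. Common reference genes were no fixed point: 9 of 13 were called higher and 3 lower, beside 51.6% and 27.5% of all genes. Their median of 0.37 was close to the 0.38 of all genes. With quantile normalization it was -0.03, and that of all genes 0.26. Hprt was higher by 0.98 ± 0.12, and B2m, the light chain of class I antigens, lower by -1.53 ± 0.32.

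The same replicate number marked like samples in both groups. The Y-linked genes Ddx3y and Eif2s3y were at background on replicate 1 of podocyte RNA (-7.42 and -7.56) and of glomerular RNA (-7.52 and -6.91). On replicates 2 to 4 Ddx3y read 3.00, 3.21 and 2.68 in podocyte RNA and 1.83, 2.00 and 1.48 in glomerular RNA. Replicate 1 therefore stood apart from the others in both groups in the same way. Xist had 1 probe above background on glomerular replicate 1 alone. Kap, an androgen-regulated transcript of the proximal tubule, was also lowest on replicate 1, at 0.96 against 3.41 to 5.16 in podocyte RNA and 5.82 against 8.0 to 8.58 in glomerular RNA. Leaving out podocyte replicate 1 gave 7249 genes higher and 3930 lower, and leaving out glomerular replicate 1 gave 7418 and 3892.

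**Figure D5:**
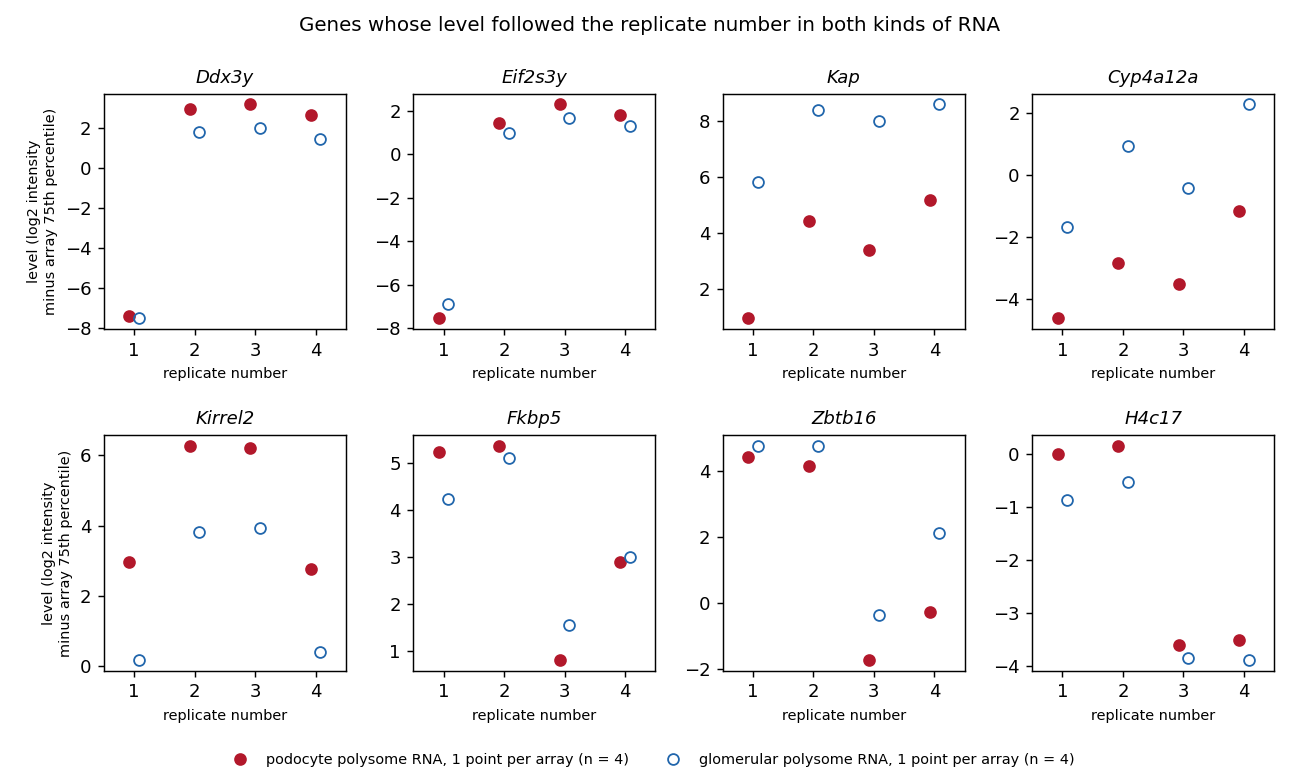
Levels (log2 intensity minus the array's 75th percentile) of 8 genes by replicate number, filled points for podocyte and open points for glomerular RNA, 1 array each. Ddx3y and Eif2s3y are at background on replicate 1 of both groups, and Kirrel2, Fkbp5, Zbtb16 and H4c17 keep the same high and low replicates in both groups.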

How the data were processed

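The arrays were Agilent 1-colour arrays, quantified by Feature Extraction 11.5.1.1, per the file headers and the submitters' processing notes. The deposited files hold a processed intensity per spot, background-subtracted and detrended by that program, and the raw median intensity of spot and local background. The deposited flags mark spots well above background, saturated or outlying. The authors' deposited value table holds log2 values, each column an exact shift of 1 array, and what set the shift is not stated. Of its 16 columns, 6 matched another replicate of the same group, renumbered alike in both normal groups.

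Control and outlying spots were left out, and spots of a probe averaged (55681 probes). RefSeq accessions named 26582 probes, and 29099 stayed unnamed. Each value is the log2 of processed intensity, less the 75th percentile of that array. A probe was kept if every array in 1 or more of the 4 groups had it well above background, and a gene took its brightest kept probe. Probes of a gene had the same sign for 94.4% of 3021 called genes with several. All 16 arrays entered 1 limma fit (limma 3.58.1, R 4.3.3, group only, 12 residual degrees of freedom), tested on simulated data. Python was 3.11.15.

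Same-numbered podocyte and glomerular arrays deviated together (correlations of 0.423 to 0.505 across genes, against -0.276 to -0.072 for other pairs), so the numbers pair the samples. Such arrays are also neighbours on the slide, which cannot be told apart from a shared source.

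Members and lists were chosen with earlier results of these data known. Named genes are the 5 markers, the 15 largest rises and falls, the 5 largest bounds each way, the 5 largest differences and every exception in each list, all ligands and receptors, Rpl22, Rpl22l1 and sex-linked genes. Other genes, cell type markers aside, were chosen after their values were seen.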

Additional observations from a re-analysis of the deposited data

Results flagged for a closer look

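Of 84 levels checked for an array far from the other 3 of its group, 3 stood out, and chance alone marks about 1 in 20. The mean level of the long non-coding RNA list was -2.30 on podocyte replicate 3, against -2.62 to -2.61 on the other podocyte arrays. The mean of the common reference genes was 5.12 on podocyte replicate 4, against 5.28 to 5.30. For mitochondrial ribosomal proteins the mean was 3.19 on glomerular replicate 1, against 2.95 to 2.99. The cause was not tested.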

How the results depend on the processing

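Calls were recomputed under 19 alternatives. The counts of genes called higher and lower stayed within 1.5 times of 7514 and 4012 in all of them. The count higher by at least 2-fold, 2826, was 5134 when arrays were centred on their medians and 1262 with normexp and quantile normalization, and the count lower by at least 2-fold, 3151, was 1975 when only genes detected on all 8 arrays were kept. The causes were not tested, apart from the smaller number of genes in the last. Leaving out 1 array at a time gave 7249 to 7463 higher, 3884 to 3972 lower, 2608 to 2971 higher by at least 2-fold and 3104 to 3161 lower by at least 2-fold. A replicate block, fitted on the 8 arrays, gave 7967 genes higher and 4156 lower. Among named genes the block also called Fos, Aqp2, Pax8, Terc and Rn28s1. Apart from the immediate early and histone counts given above, it changed no list count by over 1.5 times among lists with at least 5 calls in that direction. Of 327 named genes, 289 kept their side of the threshold throughout, and their direction where called. A call was lost somewhere by 29 and gained by 8. Among called genes, a change of sign occurred for Rpl22 (0.05 with the mean of its probes) and Olfr1382 (0.03 with normexp and the 75th percentile, -0.70 in the reported fit). Sign changes of genes called in neither fit, as for Rpl22l1, were not counted. Of 35 lists, 33 kept the sign of their median; the common reference genes and the 3 tag genes did not. With normexp the distal nephron median was -2.46 and that of leukocytes -1.57, against -3.87 and -4.24. Signals near background limit Angpt1, Anln, Thy1, Ccna2, Ccnb2 and most leukocyte genes.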

Other observations

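Some genes differed more between replicate numbers than between the kinds of RNA. Over 12263 genes detected on all 8 arrays, those with clone-style names left out, the pair mean ranged over a median of 0.37 between replicates, and 20 genes ranged over 3 or more. In 18 of these the 4 podocyte values followed the 4 glomerular values with a correlation above 0.9, which is a description over 4 pairs of arrays. Zbtb16 and Fkbp5, known glucocorticoid-induced genes, were high on replicates 1 and 2 and lower on replicates 3 and 4 in both groups. Zbtb16 read 4.42, 4.14, -1.74 and -0.29 in podocyte RNA and 4.76, 4.76, -0.37 and 2.13 in glomerular RNA, and was not called. Fkbp5 read 5.23, 5.37, 0.81 and 2.89 against 4.23, 5.12, 1.56 and 3.01, and was not called either. The histone gene H4c17 made the same split, at 0.01, 0.16, -3.61 and -3.51 against -0.87, -0.52, -3.85 and -3.89.

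Tubule enzymes in this set did not share 1 replicate order. Cyp4a12a, an androgen-dependent cytochrome of the proximal tubule, read -4.63, -2.83, -3.53 and -1.17 in podocyte RNA and -1.68, 0.94, -0.42 and 2.29 in glomerular RNA, lowest on replicate 1 of both. Cyp4a14, a target of fasting and lipid signals, read 0.86, -0.54, -2.22 and -3.45 against 5.17, 3.42, 0.99 and -0.26, higher on replicates 1 and 2 of both groups as Zbtb16 was. Cxcl13, a B cell chemokine, was highest on replicate 2 of both groups, at 1.21 and 5.62. The genes in these paragraphs were chosen after their values were seen, and what the replicate numbers share was not tested.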
